A study of Mus musculus with 12 samples.

Results

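The genes described here are 35 mitosis and spindle genes, chosen by symbol from textbook parts of the mitotic machinery: CDK1 with its cyclins, the mitotic kinases, the spindle checkpoint, the chromosomal passenger complex, spindle motors, and kinetochore proteins. They, and the other gene lists below, were chosen with earlier results of these data known. Every listed symbol matched 1 row of the expression table, so the set is 35 of 31719 genes. All 35 also passed the filter for testing (at least 1 FPKM in at least 3 libraries), which left 10276 genes; FPKM is reads scaled by gene length and by library depth. The cells were RAW264.7, a mouse macrophage-like line with a wild-type genotype label, profiled by RNA-seq in 4 groups of 3 libraries. One group was left untreated; the others received anti-CD36 antibody diluted 1 in 100, LPS (50 ng/ml), or both agents together at those doses. CD36 is a scavenger receptor that binds lipids, and LPS is the bacterial lipopolysaccharide that macrophages sense through a Toll-like receptor. The labels name no treatment time, no control antibody and no separate cultures, so every p-value below measures only the spread between libraries, which may be technical.

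Entry into mitosis is driven by the kinase CDK1 bound to cyclins A and B, and exit follows when the anaphase-promoting complex (APC/C) with its activator CDC20 marks cyclin B for destruction. The spindle checkpoint holds CDC20 back until every kinetochore is attached to microtubules, and the chromosomal passenger complex with AURKB corrects faulty attachments. Most of these genes are transcribed mainly in late S phase, G2 and M, through promoter elements read by the MuvB complex with B-MYB and FOXM1 and by the CCAAT-binding factor NF-Y, so their mRNA is widely used as a sign of dividing cells. RAW264.7 cells divide continuously in culture.

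The 12 libraries held 30070450 to 54137810 reads, as recovered from the size of the smallest steps in the FPKM values. In each library 34 of the 35 genes had 292 to 30664 reads. Bub1 was not converted to reads, since its values were not whole at its annotated exon length. All 8 macrophage markers checked were present (summed level 3459 to 4420 FPKM in untreated and 4161 to 5249 FPKM in LPS libraries). Most of that sum was Lyz2 (2675 to 4449 FPKM over the 12 libraries). Itgam (4.44 to 32.0 FPKM), Adgre1 (6.98 to 20.1 FPKM) and Ptprc (7.29 to 17.2 FPKM) were far lower. The 9 markers of other cell types found in the table summed to 0.0641 to 0.622 FPKM per library, and 5 of them were at 0 in all 12. Within a group of libraries, long, low-GC genes and short, high-GC genes drifted apart, and the 35 genes drifted with them. In untreated replicate 3 the members' deviation from the group mean had a Spearman correlation of 0.58 with exon length and −0.74 with GC content, against −0.54 and 0.64 in untreated replicate 1 (n = 35 genes that share each library; over all genes with a length the length values were 0.51 and −0.56). LPS replicate 3 (0.62 with length) and LPS replicate 1 (−0.56) were likewise opposed.

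Untreated cells carried all 35 mRNAs at clear levels. Cdc20, the APC/C activator, and Ccnb2, a B-type cyclin, were the most abundant per length, at 93.2 ± 10.5 and 91.6 ± 5.68 FPKM (SD, n = 3), and they did not differ beyond that spread. Next came Ube2c, the ubiquitin-conjugating enzyme of the APC/C (71.5 ± 11.2 FPKM), the spindle-pole kinase Aurka (70.6 ± 7.53 FPKM) and Mki67, the antigen of the Ki-67 proliferation stain (67.9 ± 13.7 FPKM), whose spreads overlapped. The lowest 2 were the outer kinetochore subunit Ndc80 (9.17 ± 1.31 FPKM) and the CDK1-activating phosphatase Cdc25c (7.77 ± 0.723 FPKM).

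LPS lowered the mRNA of all 35 genes. Each was lower in LPS than in untreated cells by limma's test on log2(FPKM + 1), adjusted over all genes tested (highest adjusted p = 0.000672, Bub1), where 33.1% of all genes tested were called lower. In all 35 every LPS library lay below every untreated library, as it did for 32.9% of all genes. The median log2 change was −1.64 (−2.50 for Plk1 to −0.69 for Bub3), beside −0.14 over all genes tested, and 23 of the 35 were among the 100 largest falls of the whole table. Genes called lower with a log2 change of −1 or beyond numbered 431, of which 34 were members: 7.89% of those genes and 97.1% of the members. In bulk RNA, fewer dividing cells and less of each mRNA per cell cannot be told apart. Median-of-ratios scaling moved the median of all genes to 0.00 and the genes called to 2226 lower and 2352 higher (3403 and 1710 otherwise), and left all 35 members lower with a median of −1.48.

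**Figure D1:**
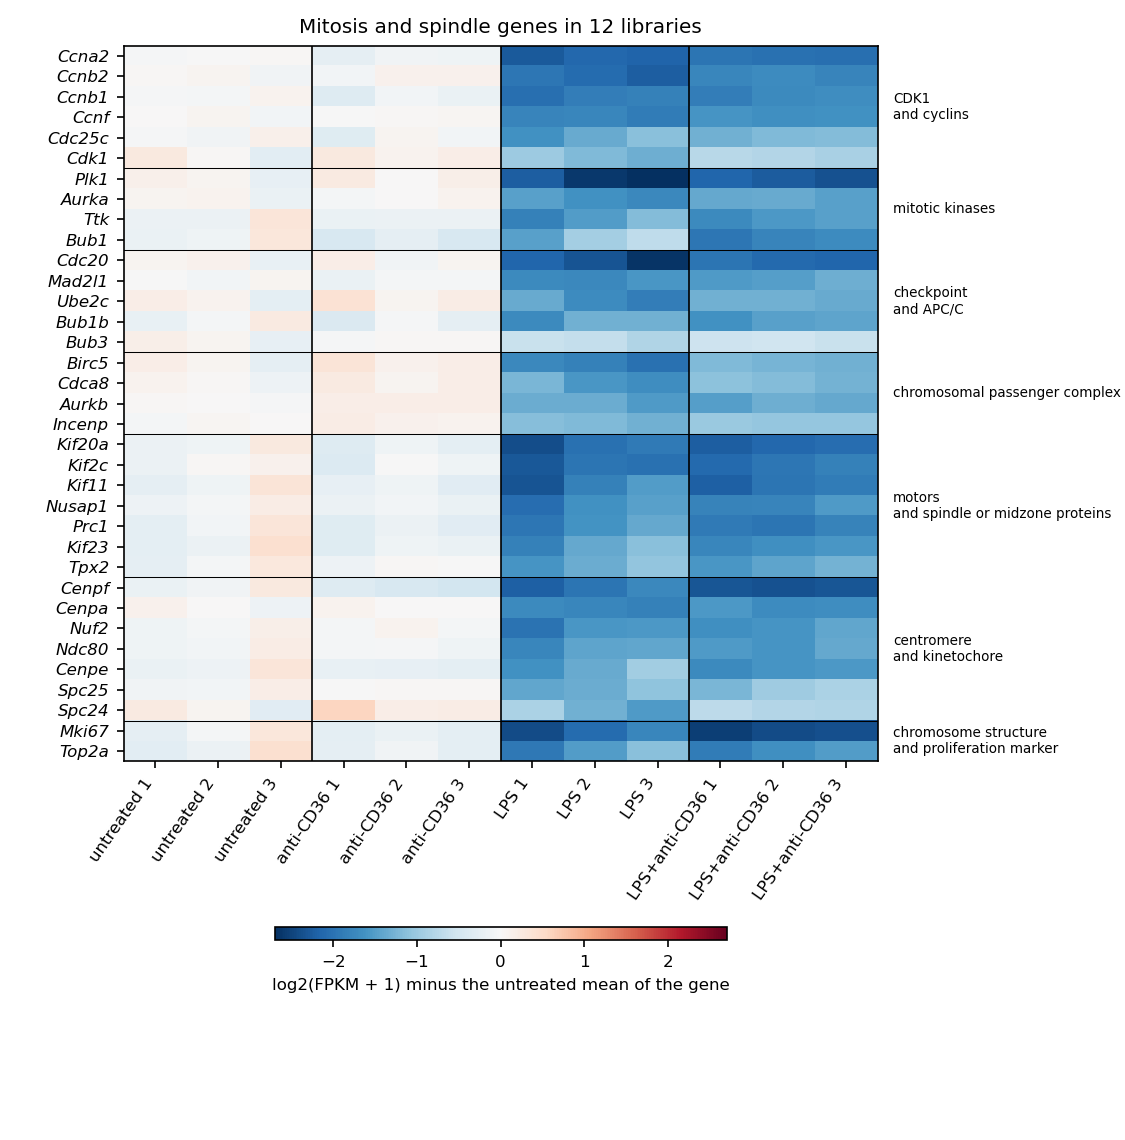
Each row is a gene, each column a library, and colour gives log2(FPKM + 1) minus the gene's untreated mean, with rows ordered by role and by LPS change. All 35 genes are blue in the 6 libraries with LPS and mostly near white in the 6 without it. With LPS alone Plk1 (mean −2.50) and Cdc20 (−2.37) are deepest and Bub3 (−0.69) is palest. With both agents Mki67 (−2.45) and Cenpf (−2.32) are deepest.

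The promoters of the members were read for the letters of the NF-Y and MuvB elements. RefSeq (GRCm38.p6) had a promoter of 300 bases, from 250 before to 50 after the transcription start, for 28 of the 35 genes, and 4 are printed here: the members with the largest falls under LPS, Plk1 (chr7:122159185-122159484, plus strand) and Cdc20 (chr4:118437294-118437593, minus strand), and those with the smallest, Bub1 (chr2:127831810-127832109, minus strand) and Bub3 (chr7:131560120-131560419, plus strand). They are written 5′ to 3′ on the gene's strand. Capitals mark CCAAT on either strand (CCAAT or ATTGG), the letters of the NF-Y site, and TTTGAA or TTCGAA on either strand (the complement of TTTGAA reads TTCAAA), the letters of the cell cycle genes homology region (CHR) that MuvB complexes bind.
Plk1: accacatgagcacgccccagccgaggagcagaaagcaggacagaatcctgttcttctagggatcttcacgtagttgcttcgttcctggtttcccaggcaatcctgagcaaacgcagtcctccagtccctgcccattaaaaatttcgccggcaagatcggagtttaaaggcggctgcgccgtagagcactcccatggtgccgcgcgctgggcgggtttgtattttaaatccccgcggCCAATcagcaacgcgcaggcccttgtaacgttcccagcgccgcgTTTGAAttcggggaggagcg
Cdc20: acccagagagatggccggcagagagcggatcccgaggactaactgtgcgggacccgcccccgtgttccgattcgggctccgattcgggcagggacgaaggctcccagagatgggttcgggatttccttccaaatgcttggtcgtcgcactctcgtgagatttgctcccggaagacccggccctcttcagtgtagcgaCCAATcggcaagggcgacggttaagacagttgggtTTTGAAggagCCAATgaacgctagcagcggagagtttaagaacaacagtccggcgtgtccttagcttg
Bub1: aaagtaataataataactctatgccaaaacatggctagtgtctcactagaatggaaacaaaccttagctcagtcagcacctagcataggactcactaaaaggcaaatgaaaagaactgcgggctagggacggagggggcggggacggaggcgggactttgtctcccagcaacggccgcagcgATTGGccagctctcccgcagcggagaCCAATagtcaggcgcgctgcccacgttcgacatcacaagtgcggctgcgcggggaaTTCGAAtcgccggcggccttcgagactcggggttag
Bub3: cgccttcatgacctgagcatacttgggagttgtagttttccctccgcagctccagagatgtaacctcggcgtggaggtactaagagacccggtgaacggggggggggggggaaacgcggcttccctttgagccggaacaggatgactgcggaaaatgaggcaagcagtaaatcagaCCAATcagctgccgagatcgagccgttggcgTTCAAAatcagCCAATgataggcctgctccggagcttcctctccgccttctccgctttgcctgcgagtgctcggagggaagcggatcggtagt
All 4 promoters held both elements. In Plk1 the single CCAAT began 14 bases before the start and the TTTGAA 30 bases after it, while in Cdc20 and Bub3 the CHR letters lay between 2 CCAAT boxes. Over the 28 promoters, 22 held CCAAT (78.6%, against 37.9% of 27025 promoters of the same length), 22 held the CHR letters (78.6% against 19.4%) and 20 held both (71.4% against 7.70%, and 6.01% of the 8042 promoters of genes tested). The CHR letters lay within 100 bases before to 50 after the start in 21 of 28 (75.0% against 8.68%). In 8 of 28 (28.6% against 2.50%) a pair of CCAAT boxes began 28 to 37 bases apart, as in Cdk1 and Ccnb1 at 32 bases and Ccnb2 at 33 bases. Neither motif was in the window of Mad2l1, Birc5, Nusap1 or Nuf2. Among the members the median LPS change was −1.63 for the 20 with both, −1.72 for the 4 with either alone and −1.71 for the 4 with neither. A match describes letters in this window, not a bound site.

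The CDK1 and cyclin genes fell by a median of 1.86 on the log2 scale under LPS. Ccna2, the A-type cyclin of S and G2 phase, read 64.8, 66.4 and 68.3 FPKM in the untreated libraries and 13.1, 14.6 and 14.0 FPKM with LPS. Its 3 libraries in each group were tight and far apart, and the ratio of means was 4.79-fold lower (log2 change −2.18, SE 0.07, adjusted p = 4.66e-10 by limma). Ccnb1, the main B-type cyclin of mitosis, read 64.5, 63.6 and 70.1 FPKM untreated and 15.2, 17.4 and 17.8 FPKM with LPS, 3.93-fold lower (log2 change −1.92). Cdk1 itself fell least of this group. It read 61.6, 52.8 and 41.9 FPKM untreated and 25.7, 21.9 and 19.9 FPKM with LPS, so the lowest untreated library still stood well above the highest LPS library (2.32-fold lower, log2 change −1.17, adjusted p = 1.74e-05 by limma). Ccnb2 fell by 2.09, Ccnf, a cyclin that serves as a ubiquitin ligase subunit, by 1.81, and Cdc25c by 1.37 on the log2 scale. Per length, Cdk1 was below Ccna2 in every untreated library and above it in every LPS library (means with LPS 22.5 ± 2.95 and 13.9 ± 0.761 FPKM).

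Among the mitotic kinases Plk1, which acts at centrosomes, kinetochores and the midbody, fell furthest of all 35 genes and ranked number 4 among the falls of the whole table. It read 55.6, 53.9 and 43.7 FPKM untreated and 10.1, 7.55 and 7.02 FPKM with LPS. Every LPS library was far below every untreated library, and the mean was 6.21-fold lower (log2 change −2.50, SE 0.13, adjusted p = 2.39e-08 by limma). Aurka, which drives centrosome maturation, fell by 1.61, and Ttk, the checkpoint kinase also called MPS1, by 1.50 on the log2 scale. Bub1, a checkpoint kinase that marks centromeric histone H2A, was the least changed kinase. Its values were 39.9, 41.6 and 55.8 FPKM untreated and 15.7, 23.7 and 27.9 FPKM with LPS, which is 2.04-fold lower (log2 change −1.02, SE 0.18). The groups did not overlap, and LPS replicate 1 was well below the other LPS libraries.

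The spindle checkpoint and APC/C members held both a large fall and the smallest fall of the 35. Cdc20 read 98.3, 100.3 and 81.2 FPKM untreated and 20.2, 17.8 and 14.0 FPKM with LPS, 5.38-fold lower (log2 change −2.37, SE 0.13). Bub3, a WD-repeat subunit of the mitotic checkpoint complex, read 45.5, 42.8 and 34.8 FPKM untreated and 26.4, 25.8 and 22.9 FPKM with LPS. Its groups did not overlap either, yet 61.0% of the untreated level was left (log2 change −0.69, SE 0.10, adjusted p = 0.000108 by limma), against 18.6% for Cdc20. The other checkpoint members Mad2l1 and Bub1b, which bind CDC20 in that complex, fell by 1.68 and 1.43, and Ube2c fell by 1.64 on the log2 scale.

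The 4 genes of the chromosomal passenger complex were all lower, by a median of 1.45 on the log2 scale. Aurkb, its kinase, read 37.9, 37.3 and 36.0 FPKM untreated and 14.1, 13.9 and 12.2 FPKM with LPS, 2.76-fold lower (log2 change −1.40, SE 0.08). Birc5, which encodes survivin, its targeting subunit, read 44.2, 40.9 and 32.8 FPKM untreated and 11.0, 10.2 and 8.96 FPKM with LPS, 3.90-fold lower (log2 change −1.86, SE 0.11). In both genes the libraries of a group lay close together relative to the gap between groups. The scaffold Incenp fell by 1.21 and Cdca8, which encodes borealin, by 1.50 on the log2 scale.

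**Figure D2:**
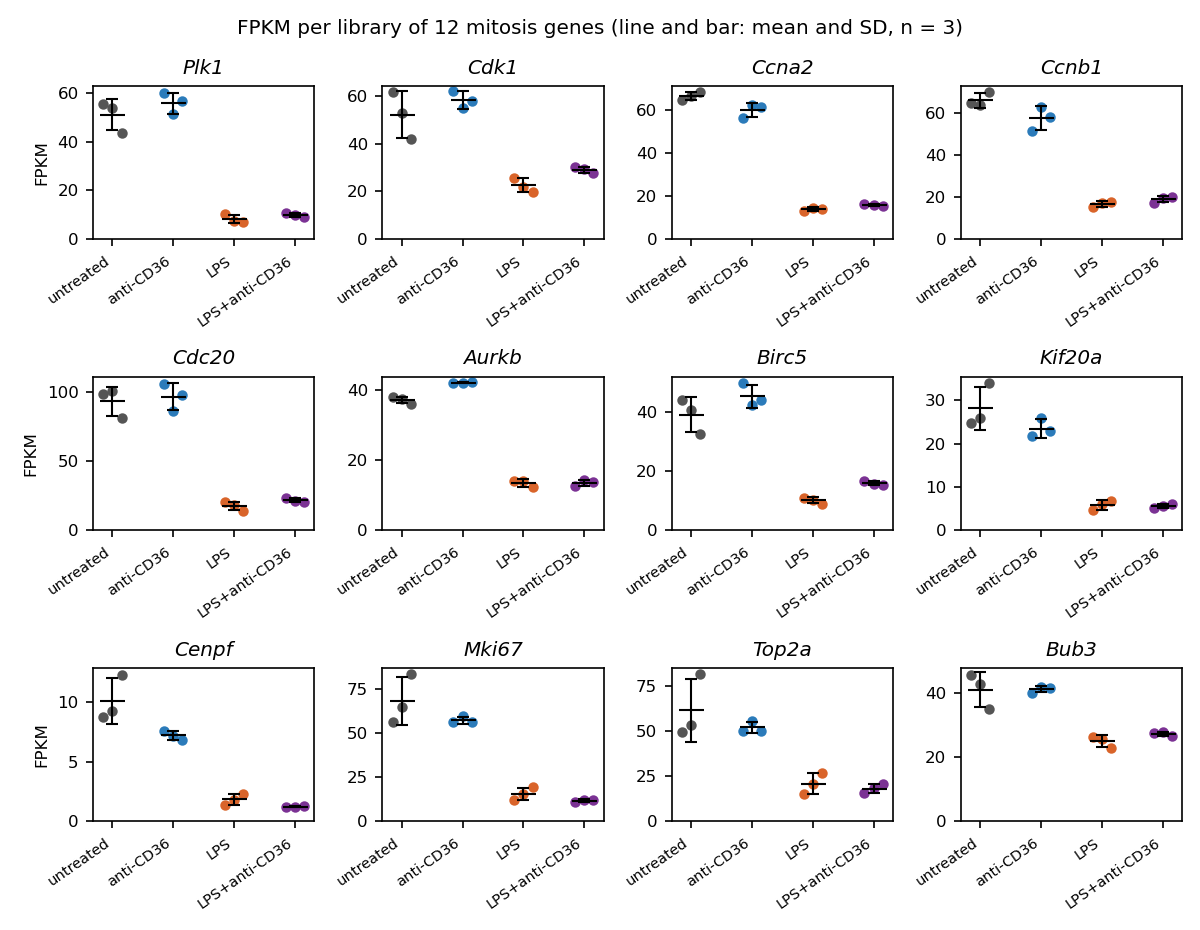
FPKM on the vertical axis (each panel from 0) in the 4 groups for 12 of the genes; dots are libraries, the long line is the mean and the bar is the SD (n = 3). The groups with LPS lie below the groups without it in every panel, for example 7.02 to 10.7 FPKM against 43.7 to 59.9 FPKM for Plk1, and the Bub3 panel has the smallest gap.

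Spindle motors and midzone proteins fell by a median of 1.72 on the log2 scale. Kif20a, a kinesin of the central spindle, read 24.8, 25.8 and 34.0 FPKM untreated and 4.53, 6.11 and 6.70 FPKM with LPS. The highest LPS library was far below the lowest untreated library, and the mean was 4.88-fold lower (log2 change −2.11, SE 0.14). Kif2c, the microtubule-depolymerising kinesin MCAK, fell by 2.09, Kif11, the bipolar spindle motor Eg5, by 1.89, and Nusap1, a spindle-associated protein, by 1.72. Prc1, which bundles antiparallel midzone microtubules, fell by 1.65, the centralspindlin motor Kif23 by 1.44, and Tpx2, which activates AURKA on the spindle, by 1.33 on the log2 scale.

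Centromere and kinetochore genes fell by a median of 1.53 on the log2 scale. Cenpf, a large outer kinetochore protein, read 8.75, 9.27 and 12.3 FPKM untreated and 1.37, 1.80 and 2.30 FPKM with LPS, 5.54-fold lower (log2 change −1.97, SE 0.13, which at this low level is smaller than the log2 of the ratio because 1 FPKM was added). Cenpa, the centromeric histone, fell by 1.77. The 4 subunits of the NDC80 complex, which grips microtubules, were all lower: Nuf2 fell by 1.71 and Ndc80 by 1.53, Spc25 by 1.28 and Spc24 by 1.23. The kinesin Cenpe fell by 1.31 on the log2 scale.

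The topoisomerase Top2a, which untangles sister chromatids, and Mki67, which coats mitotic chromosomes, were lower as well. Mki67 read 56.3, 64.3 and 83.0 FPKM untreated and 11.8, 15.0 and 19.0 FPKM with LPS, 4.44-fold lower (log2 change −2.08, SE 0.16). Top2a read 49.1, 53.3 and 81.4 FPKM untreated and 15.0, 20.5 and 26.7 FPKM with LPS, 2.96-fold lower (log2 change −1.52, SE 0.21, adjusted p = 8.91e-05 by limma). Replicate 3 was the highest library in both groups for both of these long genes, and the groups still did not overlap. In 11 of the 35 genes an exon overlaps another annotated gene, for example Elovl1 (mean 60.0 FPKM) on the strand opposite Cdc20, and whether the authors' counting used strand is not given in the sources used here.

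Most other genes of the mitotic pathway were lower with LPS too. Of 153 other genes listed by role, 149 were tested, and LPS lowered 122 and raised 1, with a median log2 change of −0.85; over all genes tested 33.1% were lower and 16.6% higher, with a median of −0.14. Transcription regulators of G2 and M genes fell in 18 of 20 cases, including Foxm1, the forkhead activator of this programme (from 18.4 ± 0.109 to 4.13 ± 0.347 FPKM), Mybl2, which encodes B-MYB (from 33.3 ± 1.36 to 14.0 ± 1.64 FPKM), and the repressor E2f8. CDK1 regulators fell in 11 of 13, led by the inhibitory kinase Wee1 (from 13.8 ± 0.498 to 3.05 ± 0.0273 FPKM), the centrosomal kinase Nek2 and the phosphatase Cdc25b. The APC/C list fell in 8 of 17, with a median of −0.32. There Fbxo5, the APC/C inhibitor EMI1, fell by 1.91 on the log2 scale, whereas the core subunits Anapc5 and Anapc2 fell by 0.63 and 0.58. Among checkpoint and outer kinetochore genes 17 of 20 fell, including the histone H3 kinase Haspin, the microtubule-binding Ska1 and the MAD2 anchor Mad1l1. Zwint, which binds the kinetochore scaffold KNL1, rose there from 25.2 ± 1.43 to 32.4 ± 3.35 FPKM (log2 change 0.35, adjusted p = 0.00975 by limma); it is named for being the exception, and lost its call with TPM scaling (adjusted p = 0.0571). Of centromere proteins 16 of 18 fell (Cenps, Cenpp and Oip5 had the smallest p), of condensin, cohesin and separase genes 16 of 20 (the condensin subunit Ncapd2, separase Espl1, and Cdca5, which encodes sororin), and of motors and cytokinesis genes 36 of 41 (Racgap1, Kif22 and Knstrn). No difference between lists was tested.

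**Figure D3:**
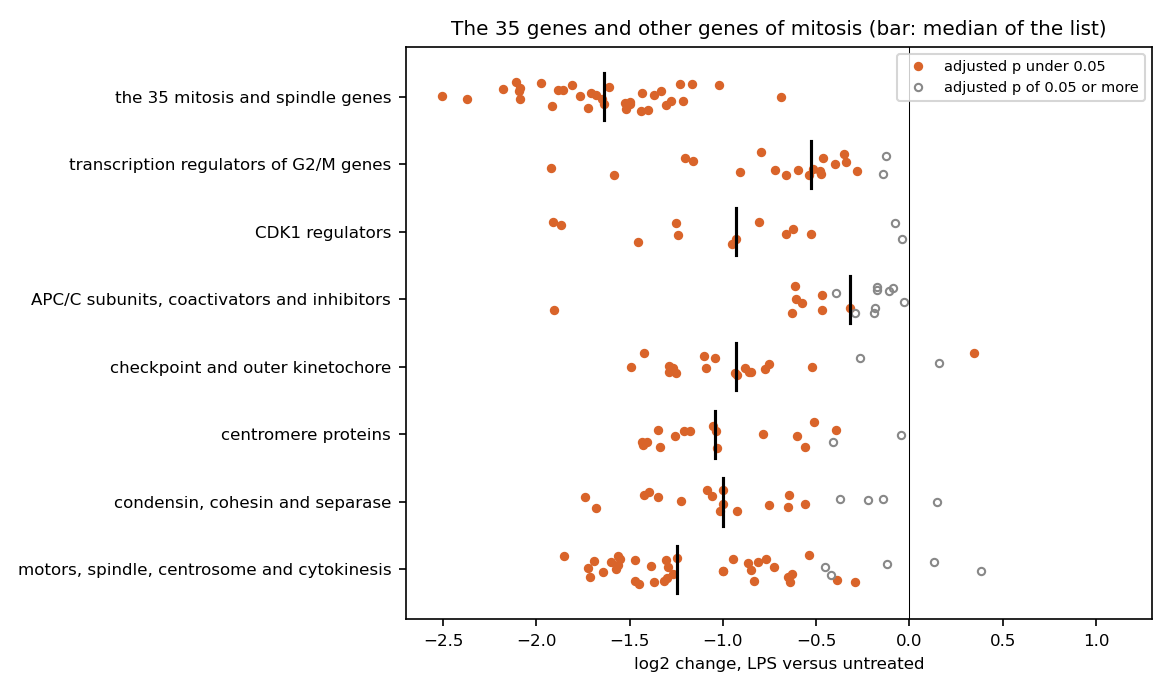
Each point is a gene, placed by its log2 change between LPS and untreated cells and grouped by list on the vertical axis (position within a row is spread for legibility); filled points had an adjusted p under 0.05 and the bar is the list's median. The 35 genes (median −1.64) lie further left than the other lists, whose medians run from −0.32 (APC/C) to −1.24 (motors, spindle, centrosome and cytokinesis).

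LPS was also tested within antibody-treated cells, between 2 groups that the first comparison did not contrast, though all 12 libraries share the estimate of the spread. All 35 genes were lower again (highest adjusted p = 0.000407, Spc24), beside 31.3% of all genes tested called lower, and in all 35 the groups did not overlap, beside 42.3% of all genes. The median log2 change was −1.49, beside −0.12 over all genes, and it ran from −2.38 for Plk1 and −2.22 for Mki67 to −0.98 for Cdk1 and −0.58 for Bub3. Plk1 read 59.9, 51.3 and 56.6 FPKM with antibody alone and 10.7, 9.96 and 9.15 FPKM with both agents, which is 5.63-fold lower. Mki67 went from 56.0, 59.4 and 56.0 FPKM to 10.7, 11.7 and 12.1 FPKM, 4.97-fold lower. In both genes the groups were far apart, as they were without antibody. Bub3 read 40.0, 41.9 and 41.6 FPKM with antibody alone and 27.3, 27.7 and 26.4 FPKM with both, again the smallest fall of the 35.

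The order of the genes was broadly alike in both settings, though not for every gene. In order of fall Bub1 stood at 34 of 35 without antibody (−1.02) and at 21 with it (−1.45). Across the 35 genes the LPS change without antibody and the LPS change with it, whose group means share no library, had a Pearson correlation of 0.91 and a Spearman correlation of 0.89, given as a description (0.94 Pearson over all 10276 genes). The fall was smaller with antibody in 29 of 35 genes, by a median of 0.14 on the log2 scale, and 53.8% of all genes had a difference of that sign. The number was 21 of 35 without LPS replicate 1 and 23 of 35 without untreated replicate 3, with medians of 0.12 and 0.15. The difference had a Spearman correlation of −0.43 with exon length across the 35 genes (−0.18 across 10092 genes with a length). After the trend on GC content and gene length was removed, the number was 29 of 35 with a median of 0.12. For single genes that difference did not pass: the interaction of LPS and antibody was called in 0 of 35 by limma (lowest adjusted p = 0.248, Ccna2), beside 1.28% of all genes, with 5 of 35 at an unadjusted p under 0.05 (8.60% of all genes), and in 0 of 34 by voom. The differences ran from −0.43 (SE 0.26) for Bub1 and −0.17 (SE 0.11) for Aurkb to 0.36 (SE 0.13) for Ccnb1 and 0.39 (SE 0.16) for Birc5. With the trend on GC content and gene length removed, 1 member was called, Ccnb1, beside 382 of 10092 genes.

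**Figure D4:**
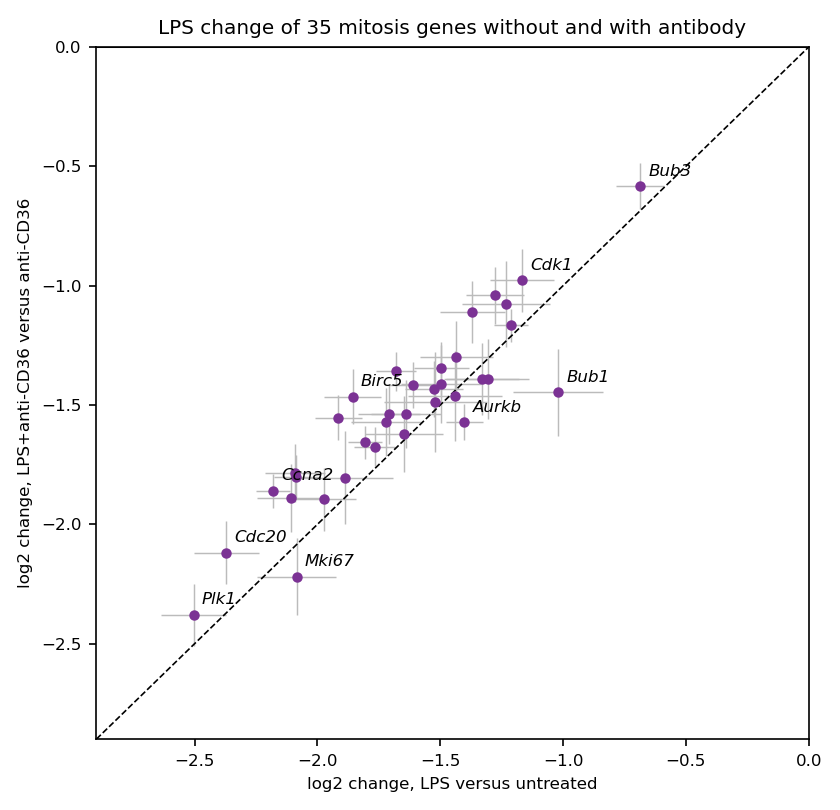
Each point is 1 of the 35 genes, with its log2 change under LPS without antibody on the horizontal axis and with antibody on the vertical axis; bars are SE and the dashed line marks equal change. Of the 35 points 29 lie above the line, with Birc5 above it and Bub1 below it by the widest margins (0.39 and −0.43).

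Cells given both agents were also set against untreated cells, a comparison that shares its untreated libraries with the first. All 35 genes were lower (highest adjusted p = 0.00383, Spc24), beside 35.1% of all genes called lower, and the groups did not overlap in any of the 35, beside 41.4% of all genes. The median was −1.62. Mki67 (−2.45) and Cenpf (−2.32) fell furthest, and Bub3 (−0.57) and Spc24 (−0.76) least. Cenpf read 1.21, 1.16 and 1.23 FPKM with both agents, the tightest group of the 4 for this gene and 8.42-fold below the untreated mean.

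The antibody alone was compared with no treatment. It changed none of the 35 genes by limma (lowest adjusted p = 0.157, Cenpf), beside 0.341% of all genes tested, and voom called 0 of 34. Unadjusted p-values were under 0.05 for 2 of the 35, against 19.2% of all genes. The median change was −0.07, with 20 genes negative and 15 positive. TPM scaling made that 27 and 8 (median −0.16, with −0.09 over all genes), and removing the trend on GC content and length made it 18 and 17 (median 0.00). Without single libraries the median ran from −0.13 (without untreated replicate 1) to −0.02 (without anti-CD36 replicate 1). The groups did not overlap in 5 genes that were lower with antibody and 2 that were higher, beside 10.5% and 12.1% of all genes. The largest differences were −0.43 for Cenpf and −0.37 for Bub1, and 0.31 for Spc24 and 0.23 for Ube2c. With the GC content and length trend removed these were −0.15, −0.20, 0.13 and 0.08, and the largest were then −0.20 for Kif20a and 0.22 for Cdk1, neither of them called. Cenpf read 7.61, 7.14 and 6.83 FPKM with antibody, just below its lowest untreated library of 8.75 FPKM. Spc24 read 28.8, 21.7 and 22.05 FPKM with antibody against 22.7, 20.2 and 15.2 FPKM untreated, and these groups overlapped, as did those of Ube2c (93.7, 74.6 and 82.1 against 80.3, 75.3 and 59.0 FPKM). Bub1 read 33.4, 37.9 and 33.3 FPKM with antibody, below all 3 untreated libraries.

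Where antibody was added on top of LPS, a few of the genes differed by amounts small beside the LPS effect, with LPS alone as the reference. Birc5 and Ccnb2 were higher and Bub1 was lower, so 2 of 35 were called higher and 1 lower, beside 7.34% and 8.14% of all genes tested. Birc5 read 16.6, 15.8 and 15.2 FPKM with both agents against 11.0, 10.2 and 8.96 FPKM with LPS alone. The groups were clearly apart, with a ratio of means of 1.57 (log2 change 0.61, SE 0.11, adjusted p = 0.00595 by limma), and Birc5 was called in all 22 alternatives (adjusted p up to 0.0320). Ccnb2, named because it was called, read 26.4, 27.5 and 25.9 FPKM against 22.8, 20.9 and 18.8 FPKM (log2 change 0.34, SE 0.09, adjusted p = 0.0260 by limma), and lost its call in 9 of 22 alternatives (adjusted p up to 0.107). Bub1 read 10.9, 12.4 and 13.2 FPKM with both agents, below LPS alone at 15.7, 23.7 and 27.9 FPKM (log2 change −0.80, SE 0.18, adjusted p = 0.0161 by limma), and lost its call in 5 of 21 alternatives (adjusted p up to 0.0726). Unlike the other 34 genes, Bub1 did not give whole reads at its annotated exon length of 4354 bases. Among the lengths tried, 4360 bases was the shortest to give whole reads in every library. The gene model behind its values was not given in the sources used here.

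Of the other genes, Spc24 had the next largest rise, 11.4, 10.7 and 10.5 FPKM with both agents against 10.1, 7.20 and 5.92 FPKM with LPS (log2 change 0.47, SE 0.18), but did not pass (adjusted p = 0.0946 by limma). Mki67 had the second largest fall, 10.7, 11.7 and 12.1 FPKM against 11.8, 15.0 and 19.0 FPKM (log2 change −0.36, SE 0.16, adjusted p = 0.138 by limma), with overlapping groups; with the GC content and length trend removed its change was −0.14. Over the 35 genes 23 changes were positive and 12 negative, with a median of 0.13 (0.02 over all genes). TPM scaling made that 20 and 15 with a median of 0.04 (−0.09 over all genes), and leaving out LPS replicate 1 made it 21 and 14 with a median of 0.04. Removing the trend on GC content and length made it 25 and 10 with a median of 0.12 (0.02 over all genes). Leaving out LPS replicate 3 made it 27 and 8 with a median of 0.14. The groups did not overlap in 13 genes that were higher with antibody, beside 19.7% of all genes, and in 2 that were lower, Bub1 and Cenpf, beside 16.4%. Cenpf had a change of −0.35, or −0.01 with the GC content and length trend removed. The 13 included Cdk1 (30.3, 29.2 and 27.8 against 25.7, 21.9 and 19.9 FPKM) and Cdc20 (23.0, 20.96 and 20.2 against 20.2, 17.8 and 14.0 FPKM).

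The antibody changes followed the length and GC content of the genes. For antibody on LPS the Spearman correlation with exon length was −0.62 across the 35 genes (−0.50 across 10092 genes with a length). For antibody alone it was −0.57 (−0.51), while for LPS against untreated it was 0.13 (0.05). With GC content these values were 0.54 (0.37), 0.68 (0.55) and −0.10 (−0.07). All are descriptions over genes that share all libraries. Length and GC content were themselves correlated across the 35 genes (Spearman −0.48), and their separate parts were not tested. The 12 longest genes, from 6341 to 15433 bases, had a median change of −0.15 when antibody was added to LPS, and the 12 shortest, from 1531 to 4217 bases, one of 0.26. With the trend on GC content and length removed across all genes, 10 of the 35 were called instead of 3: Birc5, Ccna2, Ccnb1, Ccnf, Mad2l1, Ndc80, Nuf2, Spc24 and Spc25 higher, and Bub1 lower. Calls over all genes rose too, to 2541 of 10092 from 1590 of 10276. The count also turned on single libraries. It was 14 without LPS replicate 1 (10 higher and 4 lower), 5 without untreated replicate 3, and 1 (Birc5) when the library left out was replicate 2 or 3 of LPS or replicate 1 or 2 of both agents. Over all genes the calls in these fits were 3965 of 10251, 2070 of 10211, and 549 to 734.

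**Figure D5:**
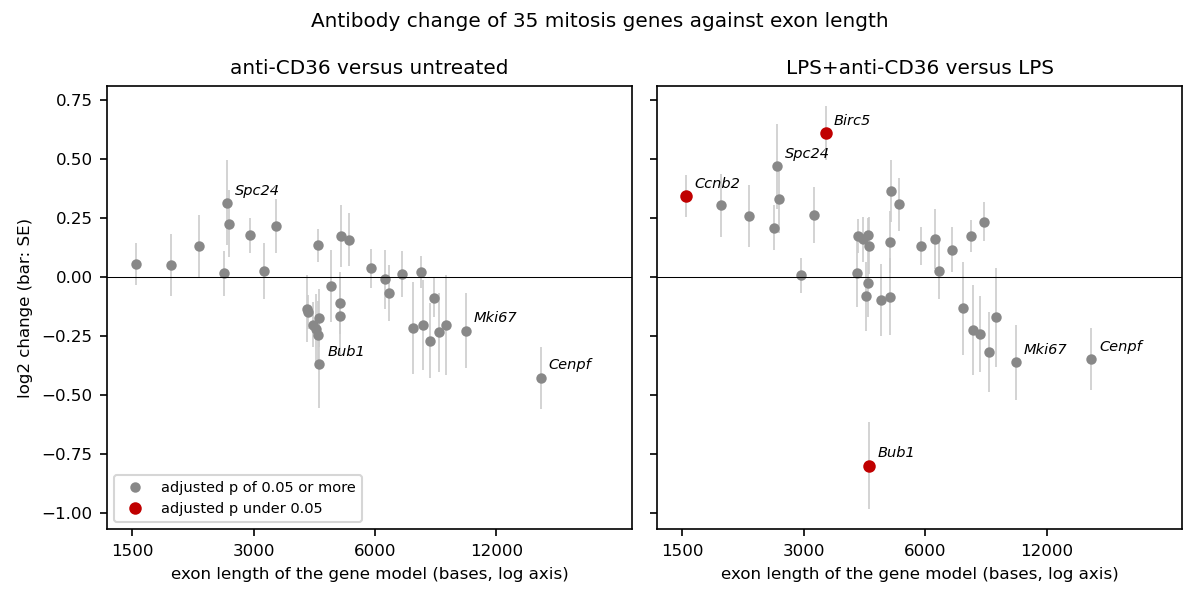
Log2 change on adding antibody (vertical axis, bar: SE) against exon length in bases (horizontal log axis) for the 35 genes, without LPS on the left and with LPS on the right; red points had an adjusted p under 0.05. Both panels slope down, from short genes such as Ccnb2 (0.34 with LPS) to the longest, Cenpf (−0.43 without LPS, −0.35 with it), and Bub1 (−0.80) lies off the slope on the right.

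Among the 149 other pathway genes tested, antibody alone changed 0 by limma, and antibody added to LPS raised 8 and lowered 4, which is 5.37% and 2.68% of them, below the 7.34% and 8.14% of all genes tested. The genes that rose were Lin37, a MuvB subunit, the phosphatase Cdc25a, Arpp19, an inhibitor of the phosphatase that opposes CDK1, Fbxo5, Ska1, Haspin, the centromere protein Cenpt and the augmin subunit Haus7, by 0.32 (Cenpt) to 0.59 (Arpp19) on the log2 scale. The genes that fell were the retinoblastoma family members Rb1 (log2 change −0.59) and Rbl2 (−0.36), Gtse1, a microtubule-associated protein of G2 (−0.39), and the APC/C subunit Anapc1 (−0.47). All 12 are named because they were called. Of these calls Ska1, Haspin and Gtse1 held in all 22 alternatives.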

How the data were processed

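RNA-seq libraries of RAW264.7 cells were deposited by the authors as 1 table of FPKM values, with 31801 entries named by gene symbol. The aligner was HISAT2 2.0.5 per the submitters' processing notes, which list the builds mm39 and hg38 and assign neither; how reads were counted, with which annotation and strand, is not given in the sources used here. Leaving out 82 entries of repeated symbols gave 31719 genes; Il6, whose values equal those of Gm10874 in 6 libraries, was among these but was not tested. The filter kept genes reaching 1 FPKM in 3 or more libraries; tests ran on log2(FPKM + 1), so fold changes of low genes are understated. The test was limma 3.58.1 with an intensity trend (R 4.3.3) on 4 group means over all 12 libraries, with Benjamini-Hochberg adjustment over all 10276 genes and a threshold of 0.05. The test was checked on simulated data whose genes varied independently, without the drift with length and GC content seen here. That check therefore does not cover calls made under such drift. Exon lengths come from GENCODE M21 (GRCm38), at which 94.5% of the genes above 0 gave whole reads in every library (tolerance 0.005 reads); read mates appear to have been counted separately, since genes at 2 reads outnumber those at 1. Samples were grouped by their treatment labels.

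The 35 members and all gene lists were chosen with earlier results of these data known. Values per library are printed for 12 members chosen by role and for the 2 largest rises and falls of each comparison; other pathway genes are named by smallest p, up to 3 per list, or because they were called. Alternatives changed the pseudocount (0.1), the filter (none, or 5 FPKM), the scaling (TPM or median of ratios), the samples fitted, a replicate block, and a spline on GC content and length, and left out each library. A further alternative, voom on the recovered reads, was chosen after seeing the data. Figures and summaries used Python 3.11.15.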

Additional observations from a re-analysis of the deposited data

Results flagged for a closer look

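The LPS change of Gtse1, a microtubule-associated protein of G2 and no member of the 35, differed between cells with and without antibody by −0.43 on the log2 scale (interaction term, adjusted p = 0.0498 by limma). Gtse1 was at 18.7 ± 0.444 FPKM untreated, 17.7 ± 1.05 with LPS, 19.3 ± 0.635 with antibody and 13.2 ± 0.166 with both (SD, n = 3), and the interaction lost its call in 17 of 21 alternatives (adjusted p from 0.00307 to 0.191). No member passed that test.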

How the results depend on the processing

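In the 3 comparisons of LPS with no LPS, all 35 members were called lower in every alternative fit, with 35 to 35 called when single libraries were left out. With voom it was 34 of 34, since Bub1 gave no whole reads at its annotated exon length. Their median change ran from −1.87 to −1.48 for LPS against untreated. Antibody added to LPS was the unstable count: 3 members were called, against 10 with the GC content and length trend removed, 1 with only the groups compared in the fit, and 1 to 14 when single libraries were left out. The calls over all genes shifted likewise, at 1590, 2541, 939 and 549 to 3965. Leaving out libraries gave 0 to 0 for antibody alone and for the interaction, and removing the GC content and length trend gave 1 for the interaction; the cause of these shifts was not tested. Whether same-numbered libraries pair is not stated in the labels, and the main fit left pairing out. Correlations of their deviations were 0.45 to 0.78 for number 1. They were mixed for number 2 (−0.32 to 0.43) and number 3 (−0.07 to 0.81). With the replicate number as a block 13 members were called for antibody on LPS (10 higher, 3 lower), 1 for antibody alone (Cenpf, lower) and 0 for the interaction. Beside them, 3645, 1164 and 212 of 10276 genes were called with the block. With the block and the GC content and length trend removed, the members called were 14, 1 (Nuf2, higher) and 4, beside 3580, 983 and 535 of 10092 genes. Over all genes, antibody alone called 35, 0 with only the groups compared, 457 with the trend removed, 1164 with the block and 1 to 131 without single libraries. No change of a called member reversed its sign in any alternative, but uncalled ones did: 15 of 35 for antibody alone, 8 for antibody on LPS and 14 for the interaction.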
